A study of Mus musculus with 11 samples.

Results

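The genes described here are the collagens measured in mouse pancreatic islets by bulk RNA sequencing. They are the rows of the count tables whose gene symbol is Col, a number, the letter a and a number. No measured value enters this rule, but it and the gene lists below were chosen with earlier results of these data known. The rule found 44 genes of 55536. By the kind of assembly their proteins build, 11 are fibrillar collagens, 6 are basement membrane collagens of type IV, 6 are beaded filament collagens of type VI, 9 are collagens that bind to fibril surfaces (FACIT), 4 are transmembrane, 3 short-chain, 2 multiplexin and 3 other collagens.

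Islets came from wild-type female C57BL/6J mice that were 9 weeks old when the study began. Multiparous mice (multipara) completed 3 consecutive pregnancies and their islets were taken 3 weeks after the last delivery, and virgin mice of the same age were the controls. Some mice of each kind were injected with S-961, a peptide that blocks the insulin receptor and so raises the demand for insulin. The 11 libraries were labelled virgin S-961 (n = 3), multipara S-961 (n = 4), virgin untreated (n = 2) and multipara untreated (n = 2), and the labels do not say whether a library holds the islets of 1 mouse or of several. The p-values below therefore measure only the spread between these libraries.

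Collagens are secreted proteins of 3 chains wound into a helix. Fibrillar collagens (types I, III and V and their relatives) form the cables of connective tissue and are made mainly by fibroblasts and stellate cells, whereas type IV collagen forms the sheet-like network of basement membranes. In mouse islets the basement membrane lies along the capillaries, is laid down largely by endothelial cells and is in direct contact with beta cells.

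Pairs of type IV genes lie head to head on a chromosome, and the sequence between their starts is therefore shown first. On GRCm38 the annotated genes Col4a1 (chromosome 8, 11198423 to 11312826, minus strand) and Col4a2 (11312805 to 11449287, plus strand) overlap by 22 bases at their 5′ ends. These 22 bases (chr8:11312805-11312826, plus strand, 72.7% G or C) read as follows, with no base marked.
Col4a1 and Col4a2 overlap: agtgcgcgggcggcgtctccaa
The libraries were strand-specific, but whether the counting used strand was not given in the sources used here, so reads within these 22 bases may not be told apart. Col4a4 and Col4a3 on chromosome 1 are 71 bases apart in the same arrangement, and Col4a6 and Col4a5 on the X chromosome 1308 bases apart.

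Col3a1, the fibrillar collagen with the highest mean level per length over the 11 libraries, lies on chromosome 1 (45311538 to 45349706, plus strand), 24614 bases from Col5a2. The 250 bases before its start (chr1:45311288-45311537, plus strand, RefSeq on GRCm38.p6) are 35.2% G or C and are shown for contrast with the type IV pair. Capitals mark a TATAAA at positions -117 to -112 from the first base of the gene.
Col3a1: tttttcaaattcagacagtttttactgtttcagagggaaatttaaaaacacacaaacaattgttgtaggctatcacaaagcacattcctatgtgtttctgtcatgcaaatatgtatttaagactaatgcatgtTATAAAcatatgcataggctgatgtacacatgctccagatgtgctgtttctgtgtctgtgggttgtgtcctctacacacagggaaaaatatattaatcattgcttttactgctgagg
The RefSeq promoter table (250 bases before to 50 after a start) held 35 of the 44 collagens in 38 windows. GGGCGG, read on both strands, was in 23 of these windows (60.5%) and in 35.7% of all 32851 windows. TATAAA was in 5 of 38 (13.2%, against 13.6% of all windows) and CCAAT in 13 of 38 (34.2%, against 37.4%). These letters describe the windows and are no evidence of binding.

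Total counts per library ran from 22028507 to 32234146 (median 29866486), and the collagens took between 0.0406% and 0.125% of them. Insulin transcripts took 35.3% to 41.4% of the counts without treatment and 13.2% to 20.7% with S-961, so that the tissue label was borne out by its defining genes. Several libraries stood apart from their group. The library labelled multipara S-961 4 differed from the 3 virgin S-961 libraries by 0.60, 0.61 and 0.69 (root mean square of log2 CPM over genes) and from the other multipara S-961 libraries by 0.84, 0.85 and 0.98. Mki67, a marker of dividing cells, was at 43.5 to 93.9 CPM (counts scaled to the library's normalized depth, the unit of all levels below) in multipara S-961 1 to 3, at 3.93 CPM in multipara S-961 4 and at 3.04 to 13.9 CPM in virgin S-961. Without treatment, multipara 1 stood apart with 38.6 CPM of Mki67 and 819 CPM of summed immune markers, against 39.2 to 127 CPM of immune markers in the other 10 libraries. Acinar enzymes, products of the surrounding exocrine tissue, summed to 1857 to 13971 CPM with S-961 and to 67.1 to 194 CPM without. The study's title names a loss of proliferation of beta cells with multiparity. The paper rests this on beta cells stained for Ki67 and insulin, in the pancreas and in transplanted islets. From bulk RNA sequencing it also reports cell cycle genes as lower in islets of S-961-treated multiparous mice. Mki67 here is RNA of whole islets, a measure unlike the stained beta cells. With S-961 it ran the other way to those cell cycle genes, being higher in 3 of the 4 libraries labelled multipara than in any labelled virgin. The files hold no targeted gene that would check the labels. All directions below rest on them, and every difference between multipara and virgin S-961 would turn if those 2 labels were exchanged. Both comparisons of S-961 with no treatment and the interaction would then change as well.

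Levels between genes were compared per length, as CPM per kilobase of the main coding transcript averaged over the 11 libraries. Col4a1 (27.6 ± 3.30 CPM per kb, SD, n = 11) and Col4a2 (16.7 ± 1.91) had the highest means, and their ranges did not overlap. The lowest Col4a2 value, 14.0 CPM per kb, was below the highest value of Col6a6 (18.2) and of Col3a1 (19.5), both from multipara S-961 3. Next came Col6a6 (8.66 ± 3.28), Col15a1 (6.68 ± 1.78), Col3a1 (6.56 ± 4.74), Col13a1 (4.95 ± 0.89), Col1a2 (4.64 ± 2.41), Col27a1 (4.14 ± 2.17) and Col1a1 (2.92 ± 2.27). Neighbours from Col6a6 downward did not differ beyond their spread. With lengths from all exons joined together, the first 6 places were the same and Col1a2 moved from place 7 to place 11. Col2a1, Col9a1, Col10a1, Col17a1, Col19a1, Col22a1 and Col24a1 did not pass the filter on low counts in any comparison, and each was at most at 0.31 CPM in every library.

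By class, type IV chains made up 42.8% to 48.1% of the summed collagen level per length in virgin S-961, 28.8% to 42.1% in multipara S-961, 49.0% to 50.5% in virgin untreated and 44.7% to 52.1% in multipara untreated libraries. The fibrillar share was 16.9% to 20.4% in virgin S-961 and 24.1% to 32.9% in multipara S-961, and these ranges did not overlap. It was 14.2% to 14.8% in virgin untreated and 11.9% to 20.3% in multipara untreated libraries. Type VI chains took 12.6% to 21.1% in all 11 libraries, with the highest share in multipara S-961 3.

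**Figure D1:**
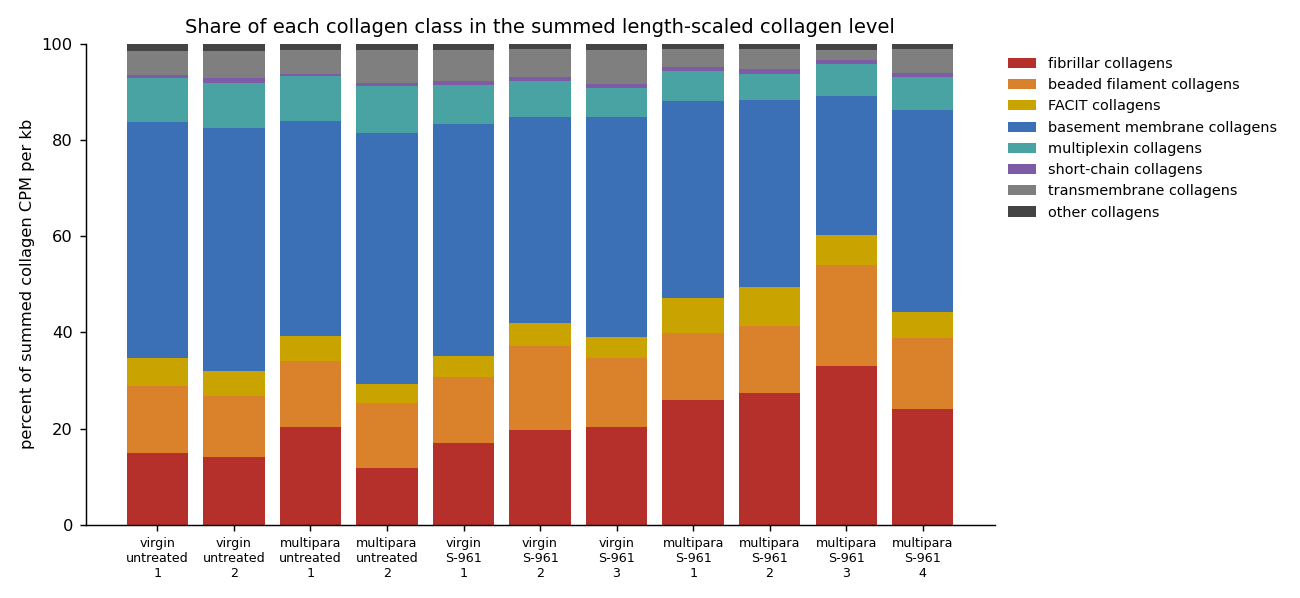
Stacked bars give each collagen class as a percent of the summed collagen CPM per kb in each of the 11 libraries, labelled by group and replicate number. Type IV (blue) was the largest class in 10 of 11 libraries. Its lowest share, 28.8%, was in multipara S-961 3, where the fibrillar share (red) reached 32.9%.

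With S-961, 8 of 9 fibrillar and 5 of 5 type IV collagens tested had a higher fitted level in libraries labelled multipara than in those labelled virgin. All multipara values were above all virgin values in 5 of the 9 fibrillar and 1 of the 5 type IV genes (background 5.23%). The values of Col4a1 and Col4a2 overlapped. Of all 35 collagens tested, 29 had a positive log2 difference, with a median of 0.80 against 0.0035 over all 16784 genes tested. None passed an adjusted p of 0.05 by edgeR's quasi-likelihood test, as was the case for 0 of all genes (smallest Benjamini-Hochberg adjusted p = 0.315), so none of the differences given for this comparison is called as a change. At an unadjusted p under 0.05, 20 collagens remained (background 9.71%), of which 19 were higher (54.3%, background 8.03%) and 1 was lower. In 15 of 35 (42.9%, background 5.23%) every multipara value was above every virgin value, and in 1 of 35 (background 3.64%) every one was below. By DESeq2, 10 collagens were called higher (background 1.83%) and none lower (background 0.0485%). Col11a1 and Col6a5 passed the filter on low counts through the multipara libraries, where they were high. Col11a1 had 4, 6 and 8 counts in virgin and 15, 20, 26 and 8 in multipara S-961 libraries. Col6a5 had 12, 3 and 4 against 64, 21, 93 and 4 counts. Their place among the 29 positive and the 19 higher collagens is therefore partly set by that filter.

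Col1a1 and Col1a2 encode the 2 chains of type I collagen, the main fibre of connective tissue. Col1a1 was at 7.94, 9.93 and 8.70 CPM in virgin S-961 libraries 1 to 3 and at 30.4, 23.4, 49.2 and 24.4 CPM in multipara S-961 libraries 1 to 4. The groups did not overlap, and the lowest multipara value was more than the sum of any 2 virgin values. The difference was 3.65-fold (log2 1.87, SE 0.28, adjusted p = 0.315 by edgeR's quasi-likelihood test, and 0.00945 without multipara S-961 4). Col1a2 was at 14.0, 14.2 and 15.5 CPM against 33.8, 30.5, 56.2 and 27.2 CPM, 2.57-fold (log2 1.36, SE 0.25, adjusted p = 0.315 by edgeR, and 0.0163 without multipara S-961 4).

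Col3a1 encodes type III collagen, which is woven into type I fibrils in soft tissues. It was at 18.3, 21.4 and 17.7 CPM in virgin and at 48.6, 46.3, 108 and 40.7 CPM in multipara S-961 libraries. Multipara S-961 3 stood far above the other 3 of its group, and the groups did not overlap with or without it. The difference was 3.24-fold (log2 1.70, SE 0.34, adjusted p = 0.315 by edgeR, and 0.0246 without multipara S-961 4). Type V chains, which start type I fibrils, followed the same order. Col5a1 differed by 1.70 (SE 0.38), Col5a2 by 0.99 (SE 0.29) and Col5a3 by 1.15 (SE 0.44) on the log2 scale, and the groups of Col5a3 overlapped.

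Col16a1, a FACIT collagen, had the largest log2 difference among collagens with a mean of at least 1 CPM. It was at 4.57, 4.32 and 4.11 CPM in virgin S-961 and at 19.3, 24.3, 17.7 and 5.11 CPM in multipara S-961 libraries, 3.88-fold in all (log2 1.96, SE 0.45, adjusted p = 0.315 by edgeR). Here multipara S-961 4 lay close to the virgin libraries, and without it the log2 difference was 2.26 (adjusted p = 0.00295 by edgeR). Col27a1, a fibrillar collagen known from cartilage, showed this too, with 33.9, 33.0 and 33.0 CPM in virgin against 60.9, 51.7, 46.3 and 31.1 CPM in multipara libraries. Its groups overlapped through multipara S-961 4 (log2 0.53, SE 0.20, and 0.69 with adjusted p = 0.0316 without that library, by edgeR). Col1a1, Col1a2 and Col3a1, in contrast, were above all virgin S-961 values in multipara S-961 4 as well.

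Type VI collagen forms a beaded microfilament around cells and next to basement membranes. Col6a1 was at 8.28, 8.75 and 7.73 CPM in virgin and 16.5, 15.4, 23.3 and 12.6 CPM in multipara S-961 libraries (log2 1.06, SE 0.22). Col6a2 was at 8.25, 9.35 and 6.53 CPM against 17.4, 14.5, 22.0 and 13.5 CPM (log2 1.09, SE 0.21), and Col6a3 at 7.94, 7.51 and 5.86 CPM against 14.5, 12.1, 27.1 and 10.2 CPM (log2 1.19, SE 0.34). None of these 3 genes overlapped between groups. Col6a6, the most abundant type VI gene, did overlap. It was at 73.2, 88.1 and 65.3 CPM against 69.2, 57.7, 159 and 69.8 CPM (log2 0.26, SE 0.34). Col6a4 (log2 -0.17, SE 0.75) and Col6a5 (log2 2.64, SE 0.96) overlapped too. Col14a1, a fibril-binding collagen of the FACIT class, was at 6.09, 5.94 and 4.14 CPM against 11.2, 8.55, 16.4 and 8.01 CPM (log2 1.06, SE 0.29). Without multipara S-961 4, edgeR called 8 collagens higher (background 2.69%) and none lower (background 0.47%). These were Col1a1, Col1a2, Col3a1, Col5a1, Col6a1, Col6a2, Col16a1 and Col27a1.

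The type IV chains differed less. Col4a1 was at 189, 151 and 151 CPM in virgin S-961 and at 207, 170, 179 and 176 CPM in multipara S-961 libraries, and the groups overlapped (log2 0.18, SE 0.14, adjusted p = 0.71 by edgeR). Col4a2 was at 114, 90.4 and 90.4 CPM against 130, 107, 105 and 107 CPM, again overlapping (log2 0.21, SE 0.14, adjusted p = 0.649 by edgeR). Of the rarer chains, Col4a3 was at 2.57, 2.81 and 1.52 CPM against 3.12, 1.63, 3.29 and 2.31 CPM (log2 0.19, SE 0.33). Col4a5, a chain of specialised basement membranes, was the 1 tested member of its class whose groups did not overlap (log2 0.80, SE 0.25). Col4a6, which was not tested in this comparison, was at most at 0.80 CPM in any library, and its groups did not overlap either. Over the 5 type IV genes tested the median was 0.21, and over the 9 fibrillar genes tested it was 1.34. The fibrillar median is the value of Col11a1, which passed the filter through the multipara libraries. With no filter the medians were 0.33 over 6 type IV genes and 1.34 over 11 fibrillar genes.

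Not every fibrillar collagen was higher in the multipara libraries. Col11a2, a chain of type XI collagen, was at 17.6, 20.5 and 20.5 CPM in virgin S-961 and at 13.3, 16.6, 14.6 and 15.2 CPM in multipara S-961 libraries. It was the collagen whose multipara values were all below the virgin values (log2 -0.37, SE 0.13, adjusted p = 0.398 by edgeR). Col13a1, a transmembrane collagen, was at 18.3, 15.6 and 18.1 CPM against 14.1, 14.1, 9.52 and 15.8 CPM, and its groups overlapped (log2 -0.36, SE 0.18).

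**Figure D2:**
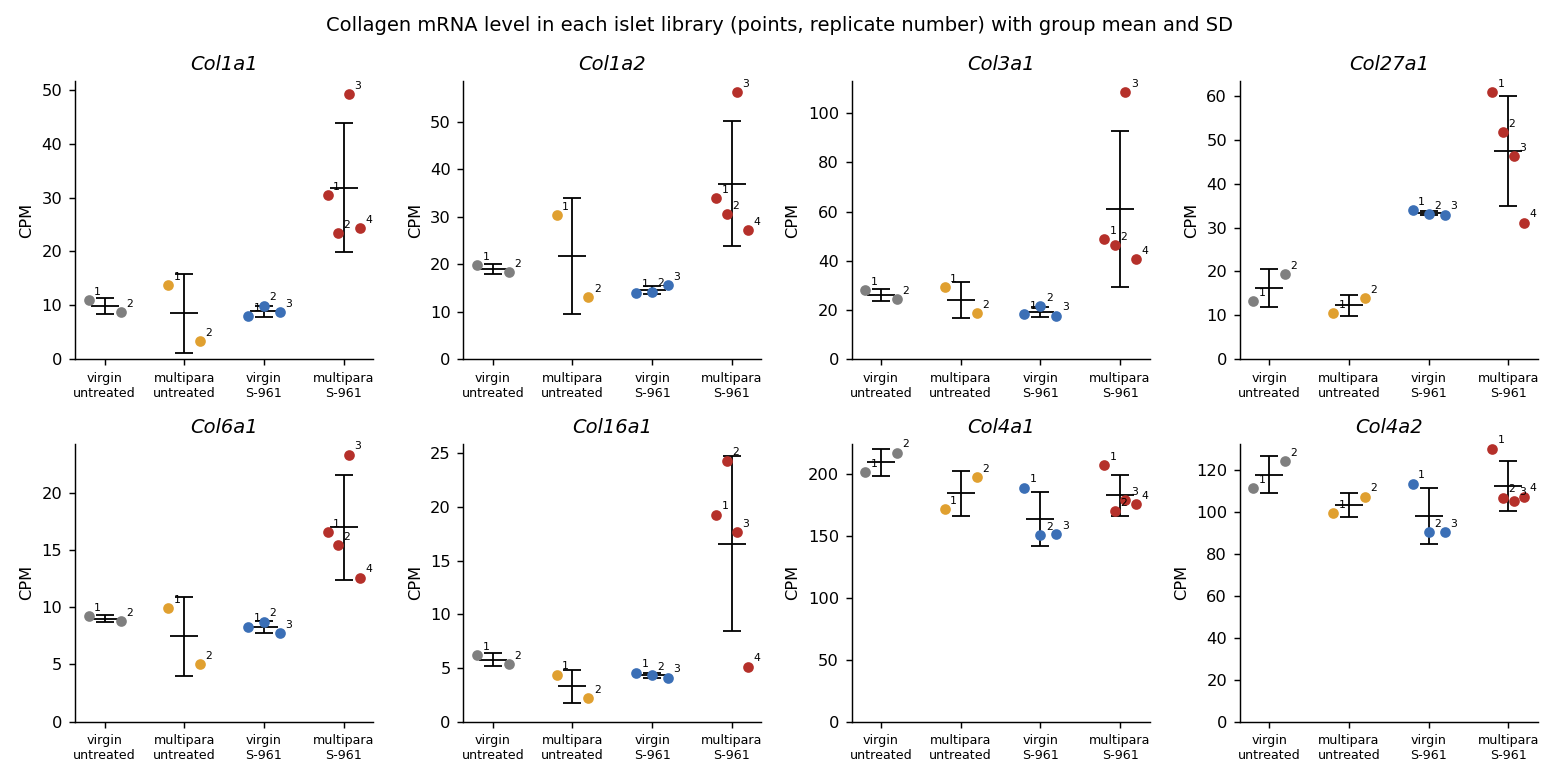
CPM (linear axes from 0) of 8 collagens in each library by group, with the replicate number beside each point and bars for the group mean and SD. All 4 multipara S-961 values of Col1a1, Col1a2, Col3a1, Col6a1 and Col16a1 lay above the virgin S-961 values. Replicate 4 lay close to them for Col16a1 and below them for Col27a1, and Col4a1 and Col4a2 overlapped.

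The level of a class in a library was summarised as the mean log2 CPM of its members, over the 9 fibrillar and 6 type IV genes that passed the filter on all libraries. It is a description over chosen genes and was not tested. The fibrillar mean was 2.51 ± 0.025 (SD, n = 3) in virgin S-961 and 3.56 ± 0.41 (n = 4) in multipara S-961 libraries, and the groups did not overlap. The type IV mean was 2.40 ± 0.16 and 2.92 ± 0.26, also without overlap, and it weighs the rare chains as much as Col4a1 and Col4a2. Col4a6, the rarest of them, passed the filter through multipara libraries. It was at 0.060 to 0.12 CPM in virgin S-961 and at 0.19 to 0.80 CPM in multipara S-961. Over Col4a1 and Col4a2 alone, the type IV genes with a mean of at least 10 CPM, the type IV mean overlapped between the groups (6.87 to 7.20 in virgin and 7.08 to 7.36 in multipara S-961). Fibrillar minus type IV was 0.021, 0.035 and 0.28 in virgin S-961 and 0.61, 0.80, 0.81 and 0.30 in multipara S-961 libraries 1 to 4. The groups did not overlap, although virgin S-961 3 and multipara S-961 4 lay next to each other. The difference between the group means was 0.52, and it was 0.29 with the median over members and 0.76 over members with a mean of at least 10 CPM. Without treatment the quantity was -0.13 and -0.35 in virgin and 0.18 and -0.53 in multipara libraries, where the spread within the multipara group exceeded the difference between groups.

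**Figure D3:**
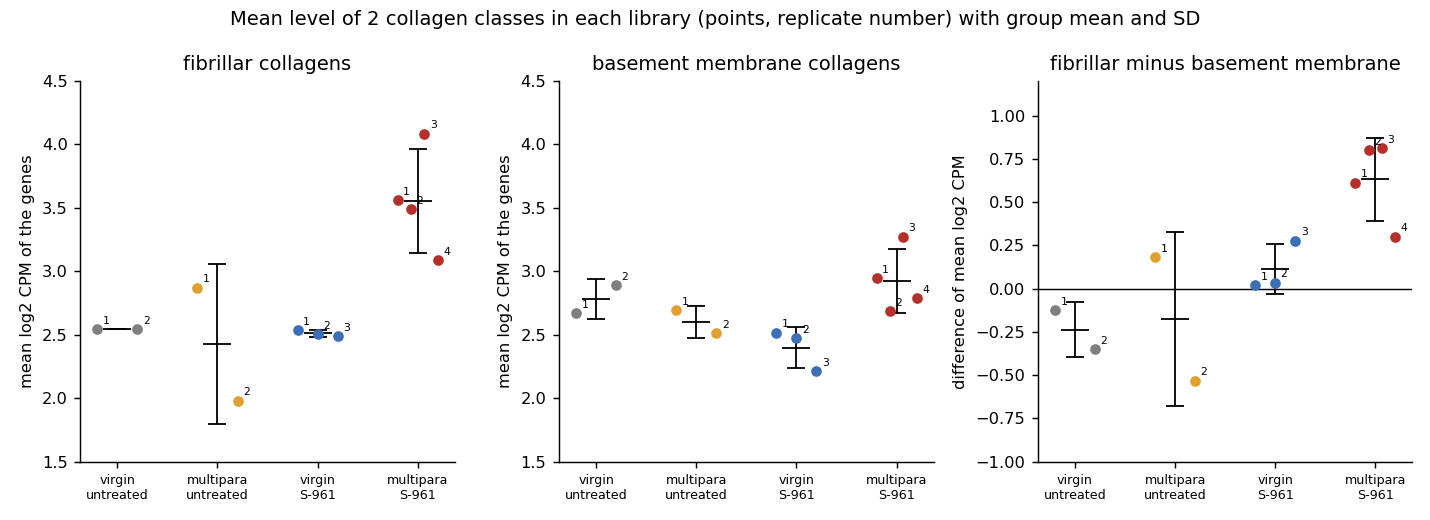
Mean log2 CPM of 9 fibrillar genes, of 6 type IV genes, and the difference between them, in each library (points with replicate number) with the group mean and SD. In the right panel multipara S-961 libraries 1 to 3 lay between 0.61 and 0.81 and replicate 4 at 0.30, and the 2 multipara untreated libraries fell on either side of the virgin untreated ones.

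Ratios of partner chains were taken per length. Col4a1 to Col4a2 was 1.65 ± 0.078 (SD, n = 11) with a coefficient of variation of 4.75%, and ran from 1.55 to 1.66 with S-961 and from 1.68 to 1.79 without, ranges that did not overlap. Col1a1 to Col1a2 varied more, with 0.55 ± 0.071 (n = 3) in virgin S-961, 0.77 ± 0.057 (n = 4) in multipara S-961, 0.47 ± 0.047 (n = 2) in virgin untreated and 0.32 ± 0.13 (n = 2) in multipara untreated libraries. Col6a1 to Col6a2 was 0.98 ± 0.11 (n = 11). Between classes, Col1a1 to Col4a1 was 0.062 ± 0.014 in virgin S-961 and 0.19 ± 0.075 in multipara S-961, and 0.053 ± 0.011 and 0.054 ± 0.050 in virgin and multipara untreated libraries.

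Without treatment, no collagen passed the test between multipara and virgin libraries. Of 33 tested, 9 had a positive and 24 a negative log2 difference, with a median of -0.11 against 0.017 over all 15812 genes. None was called by edgeR's quasi-likelihood test, like 0 of all genes (smallest adjusted p = 0.0561), and at an unadjusted p under 0.05 there were 4 (background 5.62%), 1 of them higher (background 2.52%). Groups of 2 libraries did not overlap for 3 higher (9.09%, background 17.3%) and 9 lower (27.3%, background 18.8%).

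The 2 multipara untreated libraries disagreed on the interstitial collagens. Col1a1 was at 10.9 and 8.75 CPM in virgin and at 13.7 and 3.28 CPM in multipara untreated libraries, and Col1a2 at 19.8 and 18.3 CPM against 30.3 and 13.0 CPM. Col3a1 was at 27.9 and 24.3 CPM against 29.2 and 18.7 CPM. In each gene 1 multipara library lay above and the other below both virgin libraries, and the log2 differences were -0.18 (SE 0.69), 0.21 (SE 0.42) and -0.11 (SE 0.25). Left with multipara untreated 2 alone, Col1a1 was called lower (log2 -1.61, background 0.191%), and left with multipara untreated 1 alone, Col1a2, Col5a1 and Col6a4 were called higher (background 8.81%) and none lower (background 1.5%). In both fits the lone library is assumed to vary like the virgin pair. The fibroblast and stellate cell markers summed to 103 CPM in multipara untreated 1 and to 35.6 CPM in multipara untreated 2, against 53.5 and 57.8 CPM in the virgin pair.

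Type IV chains were closer together, with Col4a1 at 201 and 217 CPM in virgin and 172 and 197 CPM in multipara untreated libraries (log2 -0.18, SE 0.098). Col4a2 was at 112 and 124 CPM against 99.5 and 107 CPM (log2 -0.18, SE 0.088). Both genes were lower in both multipara libraries than in either virgin library, with an adjusted p of 0.719 by edgeR. Col8a2, a short-chain collagen known from the cornea, was at 1.80 and 2.46 CPM against 0.76 and 1.13 CPM (log2 -1.17, SE 0.36), and Col26a1 at 1.99 and 2.06 CPM against 0.85 and 1.01 CPM (log2 -1.12, SE 0.29). Upward, Col7a1, the anchoring fibril collagen, was at 0.92 and 1.01 CPM against 1.52 and 1.95 CPM (log2 0.85, SE 0.31) and Col11a2 at 5.59 and 9.23 CPM against 14.1 and 9.64 CPM (log2 0.69, SE 0.34).

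In virgin islets single collagens differed between S-961 and untreated libraries in both directions. Of 37 tested, 4 rose (10.8%, background 18.8%) and 4 fell (10.8%, background 17.6%) at an adjusted p under 0.05 by edgeR, shares below those of all genes, and 10 had an unadjusted p under 0.05 (background 46.4%). The median log2 difference was -0.31 against -0.036 over all 17996 genes. These calls rest on 3 against 2 libraries, and the count fell to 3 without virgin untreated 1 (background 18.4%), to 4 without virgin untreated 2 (background 16%) and to 4 without virgin S-961 2 (background 27.7%). Col7a1, Col11a2 and Col9a2 were called in each of these fits. In both parity groups, rose and fell mean higher and lower in S-961 than in untreated libraries. These libraries also differed in acinar sum. It was 1857 to 7370 CPM in virgin S-961, 4634 to 13971 CPM in multipara S-961 and 67.1 to 194 CPM in untreated libraries. The part of that difference in the collagen values was not tested.

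Col7a1 rose 3.30-fold, from 0.92 and 1.01 CPM to 3.80, 2.66 and 3.11 CPM (log2 1.72, SE 0.34, adjusted p = 0.00327 by edgeR). Col11a2 rose 2.64-fold, from 5.59 and 9.23 CPM to 17.6, 20.5 and 20.5 CPM (log2 1.40, SE 0.23, adjusted p = 0.00133 by edgeR). Col27a1 rose 2.04-fold, from 13.2 and 19.3 CPM to 33.9, 33.0 and 33.0 CPM (log2 1.03, SE 0.26, adjusted p = 0.0109 by edgeR). The fourth was Col18a1, a basement membrane collagen whose end fragment is endostatin, at 3.75 and 3.95 CPM without and 7.67, 7.39 and 6.96 CPM with S-961 (log2 0.93, SE 0.27, adjusted p = 0.021 by edgeR).

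Among those that fell, Col9a2, a chain of the fibril-bound type IX collagen, went from 7.35 and 6.21 CPM to 3.55, 3.26 and 2.46 CPM (log2 -1.13, SE 0.23, adjusted p = 0.00327 by edgeR). Col6a3 went from 16.9 and 14.3 CPM to 7.94, 7.51 and 5.86 CPM (log2 -1.13, SE 0.35, adjusted p = 0.0278 by edgeR). Its partners Col6a1 (log2 -0.13, SE 0.29) and Col6a2 (log2 -0.060, SE 0.24) did not pass. Col15a1, a collagen of vascular basement membranes, went from 42.8 and 47.4 CPM to 33.4, 27.0 and 18.5 CPM (log2 -0.78, SE 0.25, adjusted p = 0.0316 by edgeR). Col26a1 went from 1.99 and 2.06 CPM to 0.87, 0.78 and 1.20 CPM (log2 -1.09, SE 0.36, adjusted p = 0.0357 by edgeR). Type I, III and IV chains did not pass the test, with log2 differences of -0.15 (SE 0.47) for Col1a1, -0.39 (SE 0.34) for Col1a2, -0.45 (SE 0.37) for Col3a1, -0.35 (SE 0.15) for Col4a1 and -0.27 (SE 0.15) for Col4a2. The values for Col4a1, 201 and 217 CPM without and 189, 151 and 151 CPM with S-961, did not overlap.

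In multipara islets 11 of 37 collagens tested, from the fibrillar, FACIT, type VI, short-chain, multiplexin and other classes, rose with S-961 (29.7%, background 18.2%) and none fell (background 19.4%), and the median log2 difference was 0.54 against 0.031 over all genes. At an unadjusted p under 0.05 there were 13, all higher (background 47.8% in either direction). All 9 fibrillar genes tested had a positive difference, with a median of 0.97, and 3 of them rose. None of the 6 type IV genes passed the test, and their median was 0.14. The count of 11 fell to 3 (Col1a1, Col6a2 and Col27a1, background 10.4%) without multipara untreated 2, the library with the lowest total count and the lowest Col1a1, and to 7 without multipara S-961 1 (background 14.7%).

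Col27a1 had the lowest adjusted p. It was at 10.5 and 13.9 CPM without treatment and at 60.9, 51.7, 46.3 and 31.1 CPM with S-961, 3.90-fold (log2 1.96, SE 0.27, adjusted p = 0.000449 by edgeR). It rose in both parity groups, and the test of the difference between the 2 responses was not passed (log2 0.93, SE 0.36, adjusted p = 0.714 by edgeR). Col1a1 rose 3.69-fold, from 13.7 and 3.28 CPM to 30.4, 23.4, 49.2 and 24.4 CPM (log2 1.89, SE 0.48, adjusted p = 0.0114 by edgeR). Col3a1 rose 2.54-fold, from 29.2 and 18.7 CPM to 48.6, 46.3, 108 and 40.7 CPM (log2 1.35, SE 0.38, adjusted p = 0.0172 by edgeR). Col1a2 overlapped between groups through the 30.3 CPM of multipara untreated 1 and did not pass (log2 0.76, SE 0.34, adjusted p = 0.0974 by edgeR).

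Among fibril-bound and filament collagens, Col16a1 rose 4.98-fold, from 4.38 and 2.21 CPM to 19.3, 24.3, 17.7 and 5.11 CPM (log2 2.32, SE 0.53, adjusted p = 0.00694 by edgeR). Col14a1 rose 2.01-fold, from 6.92 and 4.03 CPM to between 8.01 and 16.4 CPM (log2 1.0, SE 0.34). Col6a1 rose 2.25-fold, from 9.92 and 5.04 CPM to between 12.6 and 23.3 CPM (log2 1.17, SE 0.29), and Col6a2 2.20-fold, from 8.76 and 6.49 CPM to between 13.5 and 22.0 CPM (log2 1.14, SE 0.24). Their partner Col6a3, at 13.3 and 17.6 CPM without and 10.2 to 27.1 CPM with S-961, had a log2 difference of 0.053 (SE 0.34) and did not pass.

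The list was completed by 4 genes. Col18a1 went from 5.23 and 3.21 CPM to 8.57, 6.87, 11.8 and 8.54 CPM (log2 1.08, SE 0.26), and Col7a1 from 1.52 and 1.95 CPM to 4.61, 3.75, 3.68 and 2.42 CPM (log2 1.06, SE 0.32). The short-chain genes Col8a1 (1.25 and 1.32 CPM to 2.25, 3.00, 3.32 and 2.33 CPM) and Col8a2 (0.76 and 1.13 CPM to 2.49, 1.75, 1.62 and 1.68 CPM) rose by log2 1.08 (SE 0.37) and 1.0 (SE 0.34), with adjusted p of 0.0396 and 0.0379 by edgeR. In the opposite direction, Col15a1 was at 39.7 and 42.9 CPM without and 33.3, 24.2, 42.0 and 28.8 CPM with S-961 (log2 -0.36, SE 0.24), and Col4a3 at 2.19 and 4.79 CPM without and 1.63 to 3.29 CPM with S-961 (log2 -0.42, SE 0.40). Col4a1 overlapped between groups (172 and 197 CPM against 207, 170, 179 and 176 CPM, log2 -0.011, SE 0.14), as did Col4a2 (99.5 and 107 CPM against 130, 107, 105 and 107 CPM, log2 0.12, SE 0.14).

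**Figure D4:**
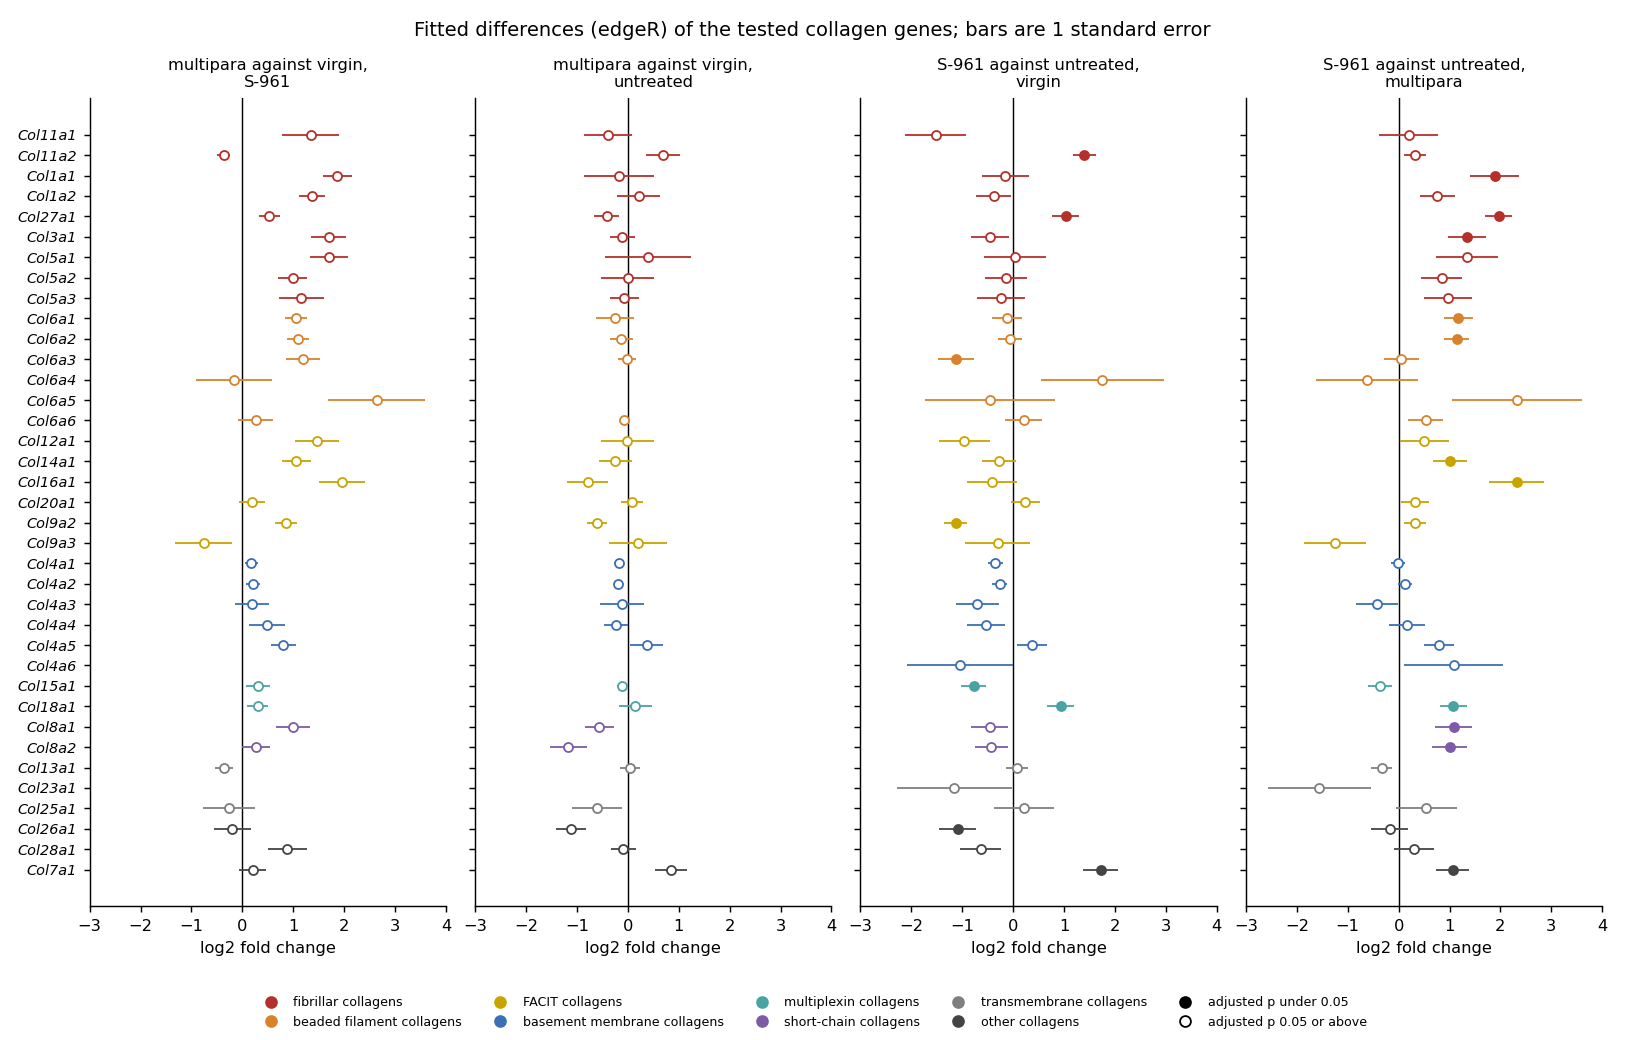
Fitted log2 fold changes (x axis, bars of 1 SE) of the tested collagens, in rows grouped and coloured by class, for the 4 pairwise comparisons. Filled points had an adjusted p under 0.05 by edgeR: none in the 2 comparisons of multipara with virgin, 8 for S-961 in virgin and 11 for S-961 in multipara islets. The last 2 panels and the first share libraries.

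The 2 S-961 comparisons and the comparison of multipara with virgin under S-961 share libraries, so each gives its own values and not a separate count of support. The question whether S-961 acted differently in multipara and virgin islets was addressed by the interaction term. No collagen passed (0 of 37, as for 0 of all 17996 genes, smallest adjusted p = 0.222 by edgeR), and 13 had an unadjusted p under 0.05 (background 6.55%), of which 12 were positive (32.4%, background 4.27%). DESeq2 called 2, Col16a1 and Col9a2 (background 0.514%). The largest terms among collagens with a mean of at least 1 CPM were Col16a1 (log2 2.73, SE 0.71) and Col1a1 (2.04, SE 0.66) upward and Col11a2 (-1.07, SE 0.31) and Col7a1 (-0.66, SE 0.45) downward. Col3a1 had 1.80 (SE 0.52), Col4a1 0.34 (SE 0.20) and Col4a2 0.39 (SE 0.20).

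Genes that act on collagens were read from lists of the pathway. Their counts stand against the same shares of all genes as above, with S-961 18.8% higher and 17.6% lower in virgin and 18.2% higher and 19.4% lower in multipara islets. Inside the cell, proline and lysine hydroxylases and the chaperone Serpinh1 prepare the chains for the helix, and Mia2 and Mia3 carry procollagen out of the endoplasmic reticulum. Of 18 such genes tested, none was called between multipara and virgin libraries in either treatment. With S-961, 4 rose and 2 fell in virgin islets, near or below the shares of all genes, and 6 rose and 2 fell in multipara islets, by edgeR. Serpinh1, a chaperone specific to collagens, fell from 40.5 and 46.6 CPM to 21.6, 22.5 and 25.7 CPM in virgin islets (log2 -0.91, SE 0.15, adjusted p = 0.00112 by edgeR). In multipara islets it fell from 43.3 and 35.3 CPM to 26.8, 25.0, 32.0 and 29.2 CPM (log2 -0.48, SE 0.14, adjusted p = 0.0204 by edgeR). In multipara islets it was therefore lower with S-961, where Col1a1 and Col3a1 were higher. Among libraries of the same treatment the order was mixed. Multipara untreated 1 had more Serpinh1 than multipara untreated 2 and also more Col1a1 (13.7 against 3.28 CPM). Among multipara S-961 libraries, replicate 3 had the highest Serpinh1 (32.0 CPM) and the highest Col1a1 (49.2 CPM). Replicate 4, however, had more Serpinh1 than replicate 1 and less Col1a1 (24.4 against 30.4 CPM). In the virgin untreated pair the order was inverse, with Serpinh1 at 40.5 and 46.6 CPM and Col1a1 at 10.9 and 8.75 CPM. Plod1 fell in virgin (log2 -0.35, SE 0.11) and Crtap, a partner of prolyl 3-hydroxylase, in multipara islets (log2 -0.66, SE 0.15). P3h1 rose in virgin (log2 1.50, SE 0.31) and multipara islets (1.20, SE 0.30), as did P3h2 (1.67, SE 0.35, and 1.05, SE 0.33), Mia2 (0.86, SE 0.14 in both) and Mia3 (0.44, SE 0.16, and 0.42, SE 0.15). Plod2 (1.21, SE 0.35) and Plod3 (0.48, SE 0.15) rose in multipara islets. P4hb, the most abundant of the list, did not pass in any comparison (log2 0.26, SE 0.26 in virgin and 0.33, SE 0.25 in multipara islets).

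Outside the cell, proteinases trim procollagen and lysyl oxidases crosslink the fibrils. Of 9 such genes tested none was called between multipara and virgin libraries with S-961 (median log2 0.95), nor was any of 7 without treatment (median -0.17). With S-961, 1 rose in virgin (background 18.8%) and 3 in multipara islets (background 18.2%) and none fell, by edgeR. Tll1, a procollagen C-proteinase, rose in virgin islets from 0.31 and 0.20 CPM to 3.62, 4.65 and 6.02 CPM (log2 4.20, SE 0.50, adjusted p = 0.000276 by edgeR) and in multipara islets to between 0.98 and 2.19 CPM (log2 1.99, SE 0.45). Lox (log2 2.06, SE 0.69) and Loxl1 (1.32, SE 0.36) rose in multipara islets. Bmp1 and Loxl2, the most abundant, did not pass. Of the genes for breakdown and its inhibitors, 9 were tested between multipara and virgin libraries and 10 for S-961. Timp2 fell with S-961 in virgin islets (log2 -1.0, SE 0.20) and Ctsk, a collagen-cleaving cathepsin, rose in multipara islets (1.40, SE 0.35), and these were the only calls of that list by edgeR, fewer than the shares of all genes.

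Partners of the fibrils and of the basement membrane were read side by side. All 14 interstitial matrix genes, among them decorin, lumican, periostin and elastin, had a positive fitted log2 difference between multipara and virgin S-961 libraries (median 1.26), 11 of them without overlap (background 5.23%), and none passed the test. Fmod passed the filter on low counts through the multipara libraries. It was at 0.12, 0.18 and 0.16 CPM in virgin and at 0.35, 0.44, 1.06 and 0.59 CPM in multipara S-961 libraries. Its place among the 14 positive genes and the 11 without overlap is therefore partly set by that filter. Thbs1, the most abundant, had a log2 difference of 0.0089 (SE 0.22). With S-961 in multipara islets 4 of 14 rose by edgeR (background 18.2%), namely Fbln1 (log2 2.82, SE 0.72), Fbln2 (1.89, SE 0.50), Eln (1.36, SE 0.43) and Fbn1 (1.12, SE 0.35). In virgin islets 1 fell, Sparcl1 (log2 -0.91, SE 0.18, background 17.6%). There 12 of the 14 had a negative difference (median -0.39), and 6 were lower without overlap (background 35.5%). The 16 basement membrane partners tested had a median of 0.14 between multipara and virgin S-961 libraries and 4 without overlap, all higher (background 5.23%). Lamb3, among these 4, passed the filter on low counts through the multipara libraries, so its place there is partly set by that filter. It was at 0.12, 0.24 and 0.065 CPM in virgin and at 0.89, 1.16, 1.26 and 0.56 CPM in multipara S-961 libraries. With S-961 in multipara islets 5 of them rose (background 18.2%), Lama2 (log2 1.12, SE 0.28), Lama5 (1.10, SE 0.27), Agrn (0.93, SE 0.19), Lamc1 (0.85, SE 0.24) and Lamb2 (0.42, SE 0.13), whereas Col4a1 and Col4a2 did not pass. In virgin islets Lamc1 rose (0.71, SE 0.25) and Lamb1 (-0.51, SE 0.18) and Sparc, a collagen-binding protein, fell (-0.42, SE 0.13), shares below those of all genes. Of 7 collagen receptors tested for S-961, Itgb1, the shared chain of the collagen-binding integrins, rose in virgin (log2 0.43, SE 0.12) and multipara islets (0.57, SE 0.11), and Ddr1 did not pass.

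Cell type markers moved with some of these values. The fibroblast and stellate cell list (10 genes, 2 of which, Dcn and Lum, are also interstitial matrix genes) summed to 33.2 to 40.0 CPM in virgin S-961 and 53.9 to 95.8 CPM in multipara S-961 libraries, with a median log2 difference of 1.17 and 7 of 10 genes without overlap (background 5.23%). With S-961 in virgin islets 1 of them fell by edgeR, Thy1. Of the 10, 8 had a negative difference there (median log2 -0.74), and 7 were lower without overlap (background 35.5%). In multipara islets none was called with S-961 (median 0.16). The list summed to 53.5 and 57.8 CPM in virgin untreated and to 103 and 35.6 CPM in multipara untreated libraries. The highest sums of the list were 103 CPM in multipara untreated 1 and 95.8 CPM in multipara S-961 3. Col1a1 was at 13.7 CPM in the first and at 49.2 CPM, its highest value, in the second. All 4 multipara S-961 libraries had more Col1a1 than multipara untreated 1 and a lower sum, so the orders differed. Of the 103 CPM, 33.1 CPM was Dcn, 25.6 CPM Thy1 and 8.80 CPM Dpt. The same library had 819 CPM of immune markers. Pdgfra, which marks fibroblasts, was at 0.45 to 0.74 CPM in virgin S-961 and at 3.09, 1.95, 7.18 and 1.39 CPM in multipara S-961 libraries, and Pdgfrb, shared with pericytes, at 13.0 to 14.1 and 13.4 to 21.6 CPM. In bulk RNA, fewer cells of a type and less RNA per cell cannot be told apart, and the part of these cells in the collagen values was not tested.

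Endothelial markers summed to 563 to 680 CPM in virgin S-961, 499 to 621 CPM in multipara S-961 and 668 to 793 CPM in the untreated libraries. In virgin islets 4 of 10 of them fell with S-961 (Esam, Emcn, Pecam1 and Tie1), and in multipara islets 2 of 10 (Esam and Emcn), by edgeR, against 17.6% and 19.4% of all genes, so that the multipara share was near the background. Pericyte and smooth muscle markers ran from 169 to 246 CPM over all libraries, with Rgs5 lower in virgin islets and Notch3 and Acta2 higher in multipara islets with S-961. Acinar markers were the ones that moved most with S-961, with 9 of 10 higher in virgin and 10 of 10 in multipara islets (median log2 5.45 and 5.95), and all 10 had a positive difference between multipara and virgin S-961 libraries (median 1.02) with no gene free of overlap. Immune markers fell for 5 of 8 genes in multipara islets, where their sum was 819 CPM in multipara untreated 1 and 102 CPM in multipara untreated 2, and for 1 of 8 in virgin islets. Schwann markers rose for 2 of 5 genes in multipara islets (Sox10 and Cdh19). Of 8 duct markers tested, 1 rose and 1 fell with S-961 in virgin and 2 rose and 1 fell in multipara islets, and of 3 mesothelial markers tested 1 fell in virgin islets. Of 8 beta cell markers 3 rose and 3 fell in either parity group, and of 5 alpha cell markers 4 fell in virgin and 2 rose and 1 fell in multipara islets. In all genes 17.6% to 19.4% were called in each direction, and counts such as 1 of 8 duct or immune genes were at or below that. None of these lists had a call between multipara and virgin libraries in either treatment, and their part in the collagen values was not tested.

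**Figure D5:**
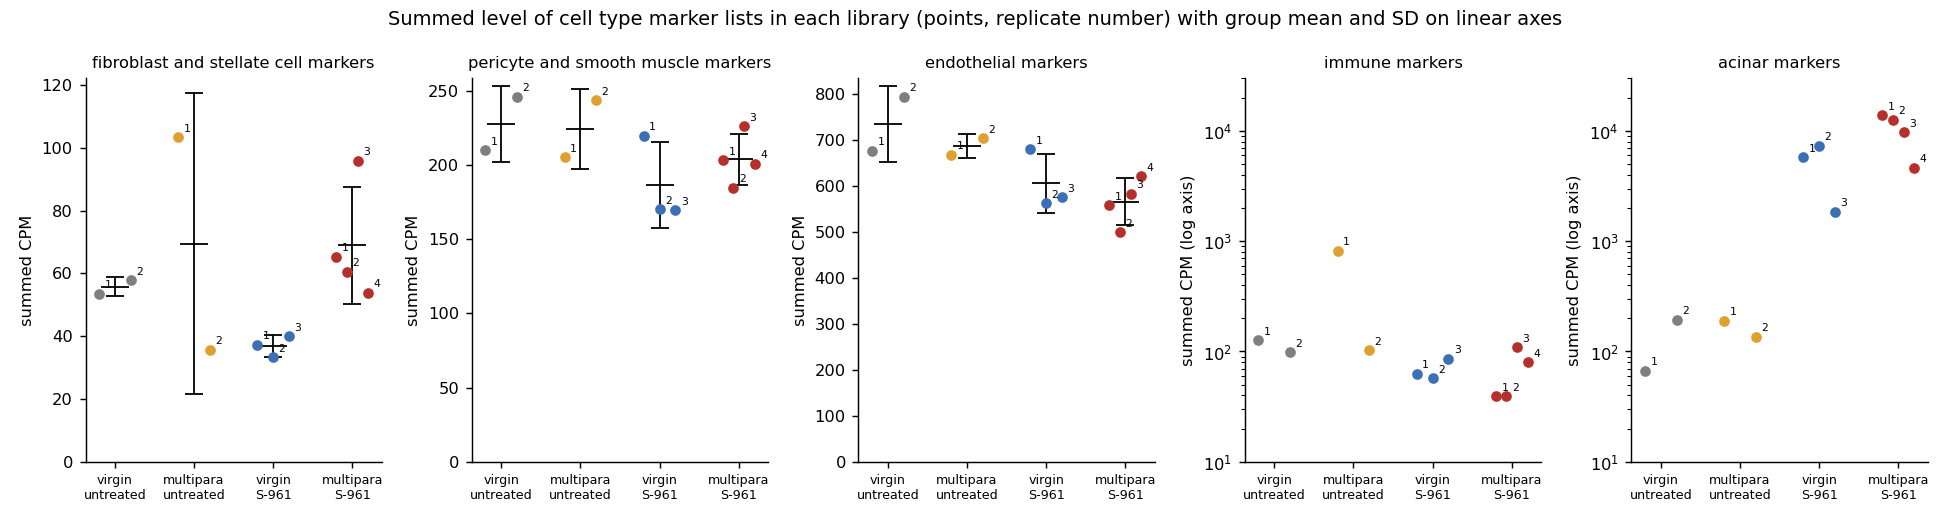
Summed CPM of 5 marker lists in each library (points with replicate number), with group mean and SD on the 3 linear panels and logarithmic axes for the immune and acinar lists. The fibroblast and stellate cell sum was 53.9 to 95.8 CPM in multipara S-961 and 33.2 to 40.0 CPM in virgin S-961, the endothelial sum overlapped between them, and acinar markers were far higher in every S-961 library than in any untreated one.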

How the data were processed

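Poly(A) RNA of islets was sequenced from strand-specific libraries. Per library, the authors deposited expected counts of reads per gene, not normalized. The submitters' processing notes name STAR, RSEM and the builds GRCm38 and mm10 without roles. Expected counts were rounded to whole counts; 21 of the 484 collagen values, in 5 genes, were not whole. All 55536 rows matched GENCODE M21 by identifier and symbol. Tests used edgeR 4.0.16 in R 4.3.3 (TMM, filterByExpr with minimum count 10 and total 15, quasi-likelihood F test, Benjamini-Hochberg adjustment over all genes tested, threshold 0.05). Multipara and virgin were compared within each treatment on those libraries alone, and the other comparisons were fitted on all 11. SE is the log2 fold change divided by the square root of F. CPM values came from a joint TMM over 11 libraries, with a prior count of 2 on the log2 scale. Alternatives were DESeq2 1.42.0, its size factors in edgeR, no filter, a replicate block, a single fit and leaving out each library. The fits were checked on simulated counts. No 2 libraries of the same group agreed within sampling noise, and pairs from different groups were not checked in this way. Genes named one by one were Col1a1, Col1a2, Col3a1, Col4a1 and Col4a2, other fibrillar or type IV genes with a mean of at least 10 CPM, collagens with an adjusted p under 0.05 in any comparison, and the 2 with the largest change in each direction with mean log2 CPM of at least 0. From each other list they were the 2 most abundant and those called. The members and lists were chosen with earlier results of these data known.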

Additional observations from a re-analysis of the deposited data

Results flagged for a closer look

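Of 24 measures (the collagens named one by one and the class means) tested over the 4 multipara S-961 libraries by Dixon's criterion for 4 values, 3 held a value far from the others, where chance flags about 1 in 20. Multipara S-961 was the only group of 4, so no other group could be flagged. Col3a1 was at 108 CPM in replicate 3 (gap over range 0.88), the library with the highest Col1a1 and Col6a3. Col4a2 was at 130 CPM in replicate 1 (0.92), and Col8a2 was at 2.49 CPM in replicate 1 (0.86). No cause was tested.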

How the results depend on the processing

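Between multipara and virgin libraries with S-961, edgeR called 0 collagens, DESeq2 10 and the fit with a replicate block 4, and leaving out 1 library gave 0 to 8, the 8 without multipara S-961 4. Without treatment the count was 0 to 3 on leaving out 1 library. For S-961 it was 8 in virgin islets (3 to 9) and 11 in multipara islets (3 to 12), and for the interaction 0 (0 to 1), with 2 by DESeq2 and 1 with the replicate block. The same replicate numbers were not shown to mark shared mice or days. The block changed no count beyond 1.5 times in the remaining comparisons. Fibrillar minus type IV was 0.52 between multipara and virgin with S-961, 0.29 by the median over members and 0.76 over members with a mean of at least 10 CPM. For S-961 it was 0.35 in virgin islets (0.87 and 0.62 by the same alternatives) and 0.81 in multipara islets (1.26 over members with a mean of at least 10 CPM). Leaving out 1 library turned the direction of log2 differences of these genes, none of them called with all libraries: between multipara and virgin with S-961 Col26a1 (-0.32 to 0.0071) and Col4a3 (-0.034 to 0.36), between multipara and virgin without treatment Col13a1 (-0.19 to 0.23), Col14a1 (-0.73 to 0.089), Col18a1 (-0.28 to 0.45), Col1a1 (-1.61 to 0.49), Col1a2 (-0.57 to 0.68), Col3a1 (-0.50 to 0.17), Col4a3 (-0.76 to 0.33), Col6a1 (-0.86 to 0.15), Col6a2 (-0.39 to 0.075) and Col6a3 (-0.22 to 0.15), for S-961 in virgin islets Col13a1 (-0.071 to 0.24), Col1a1 (-0.31 to 0.020) and Col6a2 (-0.18 to 0.069), for S-961 in multipara islets Col4a1 (-0.11 to 0.10), Col4a3 (-0.89 to 0.25) and Col6a3 (-0.33 to 0.27), for the interaction Col18a1 (-0.15 to 0.55) and Col4a3 (-0.18 to 0.95). Col4a1 for S-961 in multipara islets was 0.040 with no filter and 0.041 with the replicate block, against -0.011. The cause of these shifts was not tested.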
